A study of Mus musculus with 18 samples.

Results

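Mammary epithelial cells labelled as stem were compared with cells labelled as mature luminal in 12 of the 18 reduced representation bisulfite libraries of the series, as 6 pairs of 1 stem and 1 mature library from the same reproductive stage. All libraries came from C57BL/6 female mice, without any transgene or drug in the labels. The stem and the mature libraries covered virgin mice of week 3, virgin mice of week 9, pregnant mice of day 10, day 16 and day 19, and retired breeders, and 6 luminal progenitor libraries of the same stages stood outside the comparison. The labels give neither the surface markers used to purify the cells nor the number of animals, so each stage was 1 replicate and p-values measure the spread between these libraries. The pairs were compared at CpGs covered by 5 or more reads in each of the 12 libraries, which were 810715 of the 1485193 CpGs listed for any library. They were summed into 87245 tiles of 1 kb with at least 3 such CpGs, and the level of a tile is the percentage of its reads that were methylated.

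CpG methylation is copied by maintenance methyltransferases when a cell divides, so it can keep a record of cell identity. CpG-rich gene starts are mostly unmethylated in every tissue, while enhancers and gene starts poor in CpGs tend to lose methylation in the lineage that uses them. In the mammary gland, cells with stem activity are sorted with the basal layer, which rests on the basement membrane through integrins and expresses basal keratins. Mature luminal cells line the ducts, express Krt8 and Krt18, and include the cells that sense steroid hormones. In pregnancy the luminal layer expands and forms milk-producing alveoli.

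The deposited files hold no gene names. RefSeq promoter sequences, of 250 bases before to 50 bases after a gene start on build GRCm38.p6, were therefore placed among the files' mm9 CpG positions by the spacing of their CpGs, which placed 11331 promoters of 9991 genes. The 4 shown here are the windows of named protein-coding genes that carry the results on single starts, at Itga3 (chr11:95069149-95069448, minus strand), Rps6ka1 (chr4:133872986-133873285, minus strand), Pafah2 (chr4:134402720-134403019, plus strand) and Arhgef2 (chr3:88615893-88616192, plus strand), all in GRCm38.p6 coordinates and read along the gene. Capitals mark the CpGs measured in all 12 libraries.
Itga3: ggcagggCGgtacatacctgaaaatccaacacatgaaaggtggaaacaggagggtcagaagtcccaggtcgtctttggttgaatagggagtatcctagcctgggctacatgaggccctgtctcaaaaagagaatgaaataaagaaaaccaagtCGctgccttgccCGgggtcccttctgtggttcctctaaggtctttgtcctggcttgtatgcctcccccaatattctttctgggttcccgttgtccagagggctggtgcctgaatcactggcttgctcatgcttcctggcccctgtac
Rps6ka1: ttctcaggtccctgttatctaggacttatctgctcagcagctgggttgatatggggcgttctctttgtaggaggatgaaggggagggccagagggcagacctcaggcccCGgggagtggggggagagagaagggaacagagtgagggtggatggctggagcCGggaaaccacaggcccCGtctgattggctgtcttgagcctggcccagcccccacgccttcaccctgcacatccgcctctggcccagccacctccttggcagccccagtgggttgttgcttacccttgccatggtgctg
Pafah2: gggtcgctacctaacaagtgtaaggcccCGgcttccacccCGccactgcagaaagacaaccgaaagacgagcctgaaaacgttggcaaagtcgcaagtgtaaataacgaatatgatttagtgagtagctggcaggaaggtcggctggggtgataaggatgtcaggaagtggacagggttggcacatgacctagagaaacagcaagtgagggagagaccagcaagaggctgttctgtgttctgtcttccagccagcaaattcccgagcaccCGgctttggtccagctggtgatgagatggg
Arhgef2: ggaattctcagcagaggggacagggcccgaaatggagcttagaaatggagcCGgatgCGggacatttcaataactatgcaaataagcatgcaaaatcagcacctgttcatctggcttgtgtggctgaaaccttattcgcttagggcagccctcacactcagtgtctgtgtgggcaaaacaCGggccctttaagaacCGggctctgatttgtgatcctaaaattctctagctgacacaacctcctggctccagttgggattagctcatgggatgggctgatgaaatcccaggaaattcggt
Of the 5 CpGs in the Itga3 window 3 were measured, as were 3 of 6 in Rps6ka1, 3 of 11 in Pafah2 and 4 of 7 in Arhgef2, so the levels below describe these CpGs and not the whole window.

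One pair stood apart from the others before any gene was considered. In week 9 virgin mice the differences between stem and mature cells ran mostly against those of the other 5 stages, so the means and tests over all tiles are given for 6 pairs and for the 5 pairs without week 9, while a mean difference of a single tile or window is over the 5 pairs. The labels were used as given. Whether the labels of the stem and the mature library of week 9 were exchanged was not tested, and every value of week 9 and of 6 pairs rests on them. Sequencing depth also differed. The median number of reads per tile by stage was 235, 306, 202, 115, 144 and 100 in stem libraries, against 424, 452, 263, 145, 216 and 73 in mature libraries. Stem libraries were thus the shallower ones in 5 of 6 pairs, and the part of depth in the means below was not tested.

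Averaged over all shared CpGs, stem and mature cells had nearly the same methylation. Mean levels from week 3 to retirement were 49.9%, 50.4%, 49.6%, 49.0%, 48.7% and 49.9% in stem libraries, against 50.8%, 49.6%, 49.7%, 50.1%, 50.2% and 50.6% in mature libraries. Stem libraries were lower in 5 of 6 pairs, though by little at day 10 (-0.07 points), and week 9 was the exception. The mean difference of stem minus mature was -0.543 points (SD of the pair differences 0.836, n = 6, two-sided exact permutation p = 0.1875). Without week 9 it was -0.825 points (SD 0.528, n = 5, exact permutation p = 0.063, the smallest p that 5 pairs allow). The difference was larger in the 20518 tiles with a mean level of 20 to 80%, where stem libraries averaged 57.8% ± 2.35 and mature libraries 59.6% ± 1.8 (SD, n = 6). There the mean difference was -1.83 points (SD 3.04, exact permutation p = 0.1875), and without week 9 it was -2.86 points (SD 1.9, n = 5, exact permutation p = 0.063). On the X chromosome stem libraries averaged 76.1% ± 0.648 and mature libraries 76.5% ± 0.397 (SD, n = 6, exact permutation p = 0.4062). The X difference was -0.345 points with 6 pairs and -0.59 points without week 9 (SD 0.68, n = 5, exact permutation p = 0.1875).

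Single tiles differed much more than these means, and in both directions within each stage. Tiles at least 20 points lower in stem than in mature cells numbered 1636 (1.88% of all tiles) at week 3, 1178 (1.35%) at week 9, 1442 (1.65%) at day 10, 3803 (4.36%) at day 16, 3440 (3.94%) at day 19 and 4440 (5.09%) in retired breeders. Tiles at least 20 points higher in stem numbered 1394 (1.6%), 2467 (2.83%), 1115 (1.28%), 1976 (2.26%), 1083 (1.24%) and 2677 (3.07%) at the same stages. Lower tiles made up 54.0%, 32.3%, 56.4%, 65.8%, 76.1% and 62.4% of the tiles past 20 points, so they were the majority at every stage other than week 9. With every library thinned to 50 reads at the 58978 tiles deep enough, these shares were 54.8%, 33.4%, 56.0%, 65.8%, 75.1% and 62.7%. A count from 1 pair includes counting error, which is larger in the shallow day 16 and retired libraries.

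**Figure D1:**
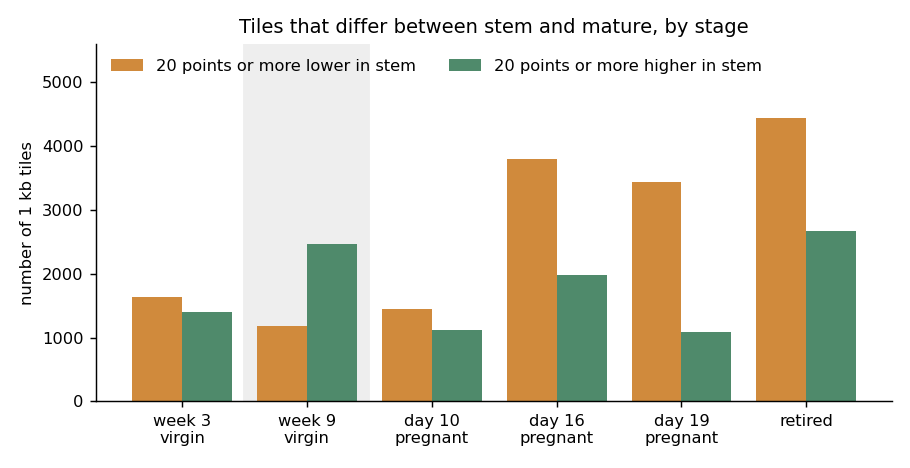
Number of 1 kb tiles whose methylation level was at least 20 points lower (left bar) or higher (right bar) in the stem library than in the mature library of the same stage, with week 9 shaded. At week 9 the higher tiles (2467) outnumber the lower ones (1178), and at the other 5 stages the lower ones are more numerous, most of all at day 19 (3440 against 1083).

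No single tile passed the test across all tiles. A quasi-binomial logistic regression per tile, with stage as a block and Benjamini-Hochberg adjustment over 87245 tiles, called 0 tiles (0.0%) with 6 pairs, where a call needs an adjusted p below 0.05 and levels at least 10 points apart. At an unadjusted p under 0.05 it had 8089 tiles (9.27%), of which 5076 were lower in stem, and the smallest adjusted p was 0.334. Limma on log2 ratios also called 0, with 7110 tiles at an unadjusted p under 0.05. With the 5 pairs without week 9 the regression again called 0 tiles (0.0%), but 10572 tiles (12.1%) had an unadjusted p under 0.05, 7761 of them lower in stem, and the smallest adjusted p was 0.13. Limma called 0 there too, with 9882 at an unadjusted p under 0.05. The count for 5 pairs depends on the fit: it was 27 without the stage block, 227 with the progenitor libraries in the fit, and 1378 (994 lower and 384 higher in stem) when only the tiles of 20 to 80% were tested, a choice made after seeing the data.

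At a small set of tiles the difference had one direction at every stage but week 9. In the 5 pairs without week 9, 628 tiles (0.72%) were at least 10 points lower in stem in every pair, and 226 tiles (0.259%) at least 10 points higher. At the threshold of 20 points they were 126 (0.144%) and 46 (0.0527%). The tile nearest the 10 point threshold from outside had a smallest pair difference of 9.941 points among lower tiles and 9.973 points among higher tiles. Groups that did not overlap were more common, with the 5 stem libraries all below the 5 mature libraries at 1331 tiles (1.53%) and all above them at 495 tiles (0.567%). When another pair was set apart in place of week 9, so that week 9 was among the 5 pairs used, between 28 and 50 tiles were lower and between 33 and 63 were higher in stem. Over all 6 pairs 20 tiles (0.0229%) were lower and 26 (0.0298%) higher.

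Mean levels at the 628 lower tiles were 55.0%, 63.4%, 34.3%, 31.4%, 32.6% and 38.5% in stem libraries from week 3 to retirement, against 74.7%, 44.7%, 58.4%, 74.5%, 65.6% and 72.8% in mature libraries. Those values chose the tiles, except at week 9. At week 9 the order was turned round, with the stem library at 63.4% and the mature library at 44.7%, and only 75 of the 628 tiles (11.9%) were lower in stem at all. The median week 9 difference at these tiles was 18.9 points higher in stem. At the 226 higher tiles the stem libraries had 46.2%, 36.3%, 56.9%, 57.0%, 59.5% and 58.2%, against 21.8%, 45.0%, 31.7%, 17.2%, 31.5% and 29.0% in mature libraries. Here 59 of 226 tiles (26.1%) were higher in stem at week 9, and the median week 9 difference was -8.29 points. Among the lower tiles the week 9 mature library was nearer to the mean of the other stem libraries than to that of the other mature libraries at 87.1%, and the week 9 stem library was nearer to the mature mean at 77.9%. Among the higher tiles these shares were 69.0% and 60.6%, and at the other tiles of 20 to 80% they were 57.7% and 57.4%. The week 3 stem library, the other virgin one, was also nearer to the mature mean at 57.0% of the lower tiles, although its own level entered the stem mean, and at 25.2% of the higher tiles. The cause of the week 9 pattern was not tested.

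**Figure D2:**
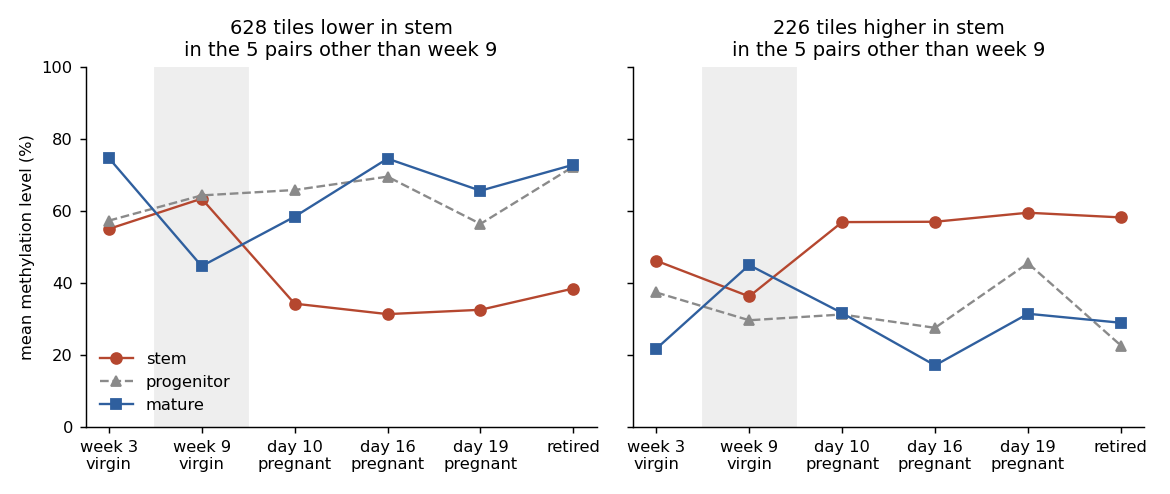
Mean methylation level (%) by stage in stem (circles), progenitor (triangles) and mature (squares) libraries at the 628 tiles lower and the 226 tiles higher in stem in the 5 pairs other than week 9, which is shaded. The stem and mature lines cross at week 9, where the lower tiles are at 63.4% in stem and 44.7% in mature cells, and at day 10, day 16 and retirement the progenitor line runs closer to the mature one in both panels.

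The direction was also read in pairs that had no part in choosing the tiles. Tiles were chosen on 4 pairs at a time and then read in the fifth of the pairs other than week 9. Among tiles lower in stem in 4 pairs, 80.9% to 97.8% were lower in the pair left out, with the lowest share at week 3 and the highest at day 16. Among all tiles of 20 to 80%, 51.1% to 64.6% were lower in stem in the same pairs. Of tiles higher in stem in 4 pairs, 80.5% to 94.9% were higher in the pair left out, against 35.3% to 48.8% of all tiles of 20 to 80%. The week 9 pair had the same direction at 10.7% to 16.3% of the lower sets and at 21.7% to 36.6% of the higher sets, against 39.9% and 60.1% of all tiles of 20 to 80%. Tiles of 1 library share its depth and handling, so these shares are given without a p-value.

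**Figure D3:**
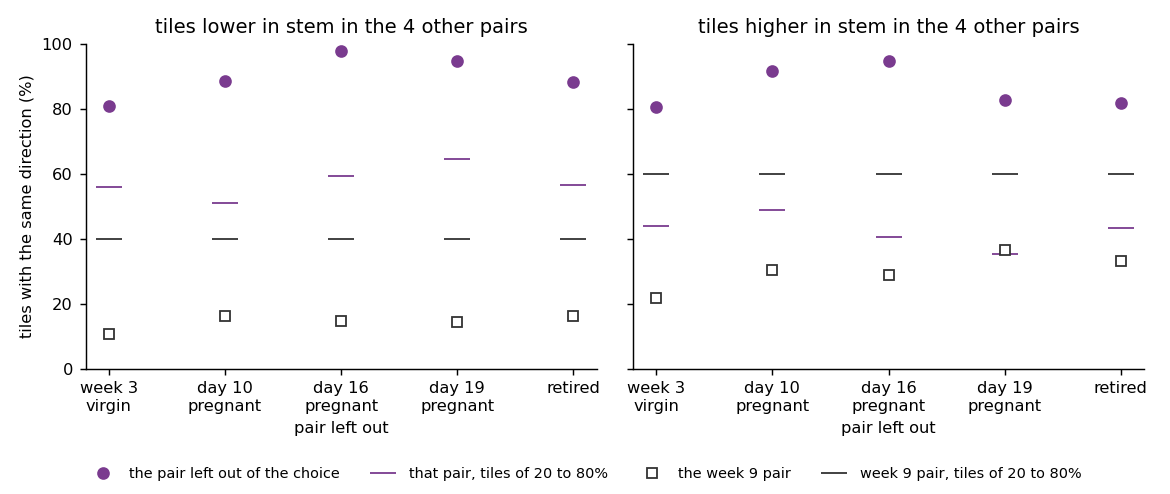
Share of tiles (%) with the same direction in a pair that was not used to choose them (circles) and in the week 9 pair (open squares), for tiles lower or higher in stem in the 4 other pairs, and dashes give the share among all tiles of 20 to 80%. The pairs left out lie between 80.5% and 97.8%, above their dashes, and week 9 lies between 10.7% and 36.6%, below its own.

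Progenitor libraries, which took no part in the choice, lay nearer to the mature than to the stem mean of the 5 stages other than week 9 at most of these tiles. At the 628 lower tiles they had 57.3%, 64.3%, 65.8%, 69.5%, 56.4% and 72.3% from week 3 to retirement. Between 57.3% and 93.8% of those tiles had a progenitor level nearer to that mature mean, lowest at day 19 and highest at day 10. At the 226 higher tiles the progenitor libraries had 37.4%, 29.7%, 31.3%, 27.6%, 45.5% and 22.7%. There the share nearer to the mature mean was 36.3% at day 19 and between 71.7% and 90.3% at the other 5 stages. At the other tiles of 20 to 80% the progenitor libraries were nearer to the mature mean at 51.5% to 61.4%. Set against its own stage, the week 3 progenitor library was on average closer to the stem library in both sets, with 57.3% against 55.0% in stem and 74.7% in mature cells at the lower tiles, and 37.4% against 46.2% and 21.8% at the higher tiles. The same held at week 9. There the progenitor library had 64.3% against 63.4% in stem and 44.7% in mature cells at the lower tiles, and 29.7% against 36.3% and 45.0% at the higher tiles. The week 9 progenitor library was on the mature side at 89.3% of lower and 88.9% of higher tiles, unlike the week 9 library labelled mature, which was on that side at 12.9% and 31.0%.

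Like the other tiles of 20 to 80%, the tiles with one direction lay mostly outside CpG-rich gene starts. Their median was 4 CpGs, as over all tiles, but only 3 of 628 lower tiles and 1 of 226 higher tiles held 20 or more CpGs, against 6.54% of all tiles and 0.675% of the other tiles of 20 to 80%. Of the lower tiles 2.07% and of the higher tiles 3.1% lay within 1 kb of a located gene start, against 14.1% of all tiles and 3.81% of the other tiles of 20 to 80%. The X chromosome held 1 lower and 1 higher tile, against 4.29% of all tiles and 5.53% of the other tiles of 20 to 80%. Of the 8461 tiles over a located gene start, 90.9% had a mean level under 10%, against 26.2% of all tiles, and 8 (0.0946%) were lower and 3 (0.0355%) higher in stem in all 5 pairs. A start was located only where at least 3 listed CpGs matched its sequence, so starts poor in CpGs are under-represented. These shares describe the located starts, of 9991 of 27025 genes, and not gene starts in general.

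At 8642 promoter windows with at least 3 shared CpGs, 11 (0.127%) were lower and 2 (0.0231%) higher in stem in all 5 pairs. Itga3 encodes the integrin alpha 3 chain, which pairs with integrin beta 1 as a laminin receptor. Its window had levels of 72.3%, 76.1%, 28.0%, 29.2%, 55.7% and 41.7% in stem libraries from week 3 to retirement, against 94.4%, 48.4%, 56.5%, 86.4%, 83.8% and 96.0% in mature libraries. The stem library was lower at every stage except week 9, by 38.0 points on average in the 5 pairs (SD 16.4), and the stem and mature ranges overlapped through week 3 stem and day 10 mature. This window belongs to the second of 2 starts of Itga3 in the RefSeq table, 7.5 kb inside the gene. At the tile over the first start the levels were 0.0% to 1.08% in stem libraries and 0.0% in each mature library. The tile over the second start, with 4 CpGs, had an adjusted p of 0.143 with 5 pairs (quasi-binomial regression, all tiles).

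Rps6ka1 encodes RSK1, a kinase activated by ERK. Its window had 56.4%, 51.2%, 16.8%, 31.2%, 28.2% and 42.1% in stem libraries, against 72.9%, 33.2%, 48.2%, 65.5%, 43.6% and 59.4% in mature libraries. It was lower in stem in all 5 pairs, by 23.0 points on average (SD 9.06), and higher at week 9, and the ranges of the 2 cell types overlapped. This is the last of 3 starts of the gene, 14.8 kb inside it, and the tile over the first start was at 0.0% to 0.207% in stem and 0.0% to 0.0457% in mature libraries. Pafah2 encodes a phospholipase that hydrolyses platelet-activating factor and oxidised phospholipids. It had 23.0%, 38.4%, 36.2%, 23.1%, 22.2% and 53.7% in stem libraries, against 83.0%, 58.5%, 56.9%, 93.0%, 55.0% and 83.3% in mature libraries. Here every stem library, week 9 included, was below every mature library, although the read number was small (18 to 118 reads per library) and the tile had an adjusted p of 0.193 with 5 pairs in the quasi-binomial regression. Pafah2 also has its differing window 6.6 kb after the first of 4 starts, and that first start was not placed.

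Arhgef2, which encodes a microtubule-bound activator of RhoA, was the one named protein-coding gene with a window higher in stem. Its levels were 55.9%, 52.4%, 45.1%, 67.8%, 52.3% and 42.7% in stem libraries, against 22.8%, 43.5%, 35.0%, 29.2%, 21.8% and 23.9% in mature libraries. Stem was higher in all 6 pairs, by 26.2 points on average without week 9 (SD 11.5), and the groups did not overlap in those 5 pairs. Single CpGs of the window varied more. The CpG nearest the start was at 39.1%, 48.8%, 35.5%, 48.4%, 36.4% and 33.3% in stem libraries, against 0.758%, 30.4%, 17.5%, 11.4%, 12.5% and 9.52% in mature libraries, so stem was higher in all 6 pairs. At the next CpG stem was higher at every stage except in retired breeders, where it was at 10.0% in stem and 16.7% in mature cells, and the levels at day 10 were close, with 15.3% in stem and 12.0% in mature cells. At the CpG farthest from the start the order was turned round at week 9, with 48.3% in stem and 55.5% in mature cells. The window belongs to the most upstream of 4 starts, and the tile over the next 2 starts was at most 0.23% in stem and 0.496% in mature libraries. Mamstr, a coactivator of MEF2 factors, and Neurl3, a ubiquitin ligase of the neuralized family, also had windows lower in stem in all 5 pairs, by 21.8 (SD 6.41) and 20.6 points (SD 7.17), and both were higher in stem at week 9, by 5.09 and 12.9 points. The remaining windows belonged to unnamed loci, of which Gm39572 counts for 2 starts that are 1 base apart.

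**Figure D4:**
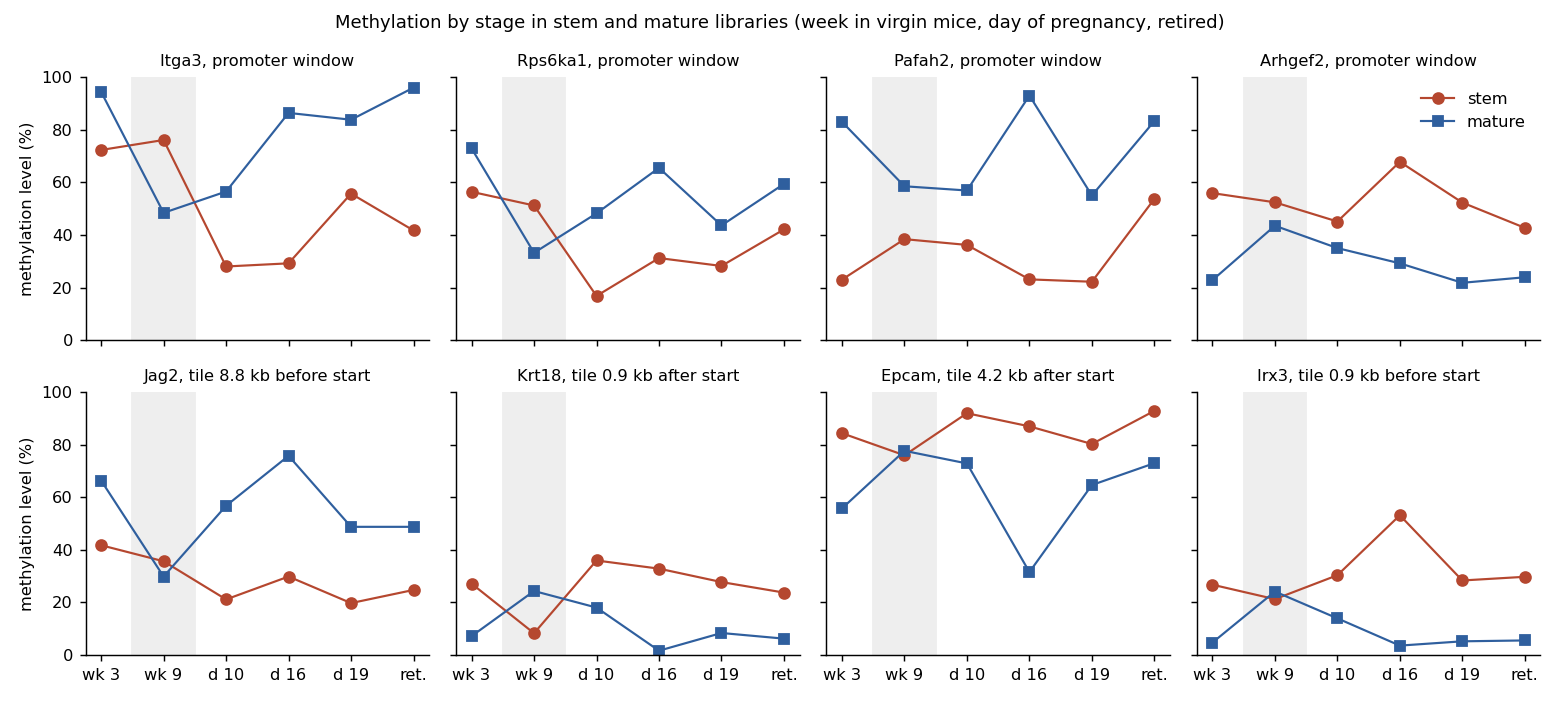
Methylation level (%) by stage in stem (circles) and mature (squares) libraries at the promoter windows of Itga3, Rps6ka1, Pafah2 and Arhgef2 and at 1 kb tiles near Jag2, Krt18, Epcam and Irx3, with week 9 shaded. In each panel the libraries keep one order at the 5 other stages, while at week 9 that order is turned round in all panels except Pafah2 and Arhgef2.

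The labels were next read against genes that mark the basal and the luminal layer. Only 3 of 12 defining markers had a placed start with a tile: Gata3, a luminal transcription factor, Krt18, a luminal keratin, and Kit, a receptor of luminal progenitors. None of the 5 basal epithelium markers was placed, so the basal identity of the stem libraries could not be read. The Gata3 start was at most 0.762% in stem and 1.08% in mature libraries, the Kit start was at 0.0% in all stem libraries and at most 0.508% in mature libraries, and the Krt18 start was at most 2.02% in stem and 2.21% in mature libraries. These 3 starts were nearly unmethylated in all 12 libraries. Inside Krt18, the tile 0.9 kb after the start had 27.1%, 8.23%, 35.9%, 32.8%, 27.7% and 23.7% in stem libraries, against 7.13%, 24.3%, 18.0%, 1.6%, 8.33% and 6.19% in mature libraries. Stem was higher in all 5 pairs, by 21.2 points on average (SD 5.69, adjusted p = 0.165, quasi-binomial regression), with no overlap of the groups, and lower at week 9.

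The luminal list was then read as a whole, Krt18 included. Of the 35 luminal genes listed, 11 were placed, with 69 tiles within 25 kb of their starts, of which 1 was lower and 2 were higher in stem in all 5 pairs. Among all 30489 tiles within 25 kb of any placed start, 192 were lower and 93 higher, and over all 87245 tiles the shares were 0.72% and 0.259%. The list was not tested against these, and 1 of its 2 higher tiles is the one inside Krt18. Epcam encodes an adhesion molecule that is stronger on luminal than on basal cells. Its tile 4.2 kb after the start had 84.3%, 75.9%, 91.9%, 86.9%, 80.2% and 92.8% in stem libraries, against 55.7%, 77.6%, 72.8%, 31.5%, 64.6% and 72.9% in mature libraries, and the groups did not overlap without week 9. The lower tile was 20.4 kb before Cldn7, a tight junction gene, with a mean difference of -24.3 points in the 5 pairs (SD 8.33) and 0.895 points at week 9. Genes that were not placed may lie nearer to it, so it is not assigned to Cldn7. No tile over the start of a listed luminal gene differed by 10 points in the mean of 5 pairs, and the largest difference was 6.59 points at Cited1, a luminal transcriptional coactivator, on the X chromosome.

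The 30 basal and myoepithelial genes gave 10 placed starts and 48 tiles, with 3 tiles lower in stem at Jag2 and 1 higher at Axin2. Among all 30489 tiles near placed starts 192 were lower and 93 higher, and the list was not tested against them. Jag2 encodes a Notch ligand. Its tile 8.8 kb before the start had 41.7%, 35.6%, 21.1%, 29.8%, 19.7% and 24.7% in stem libraries, against 66.3%, 29.8%, 56.7%, 75.7%, 48.7% and 48.7% in mature libraries. All 5 stem libraries lay below all 5 mature ones without week 9, and the mean difference was -31.8 points (SD 9.16, adjusted p = 0.13, quasi-binomial regression). The next tile, 9.8 kb before the start, had a mean difference of -28.3 points (SD 13.0), and a tile 12.2 kb after the start had -34.7 points (SD 20.2). At week 9 these 3 tiles were higher in stem, by 5.8, 30.9 and 30.7 points. The start of Nudt14, a nucleotide sugar hydrolase gene, is nearer than that of Jag2 to both tiles before Jag2, at 3.9 and 2.9 kb, and lies 24.9 kb from the third. Axin2, a target and inhibitor of Wnt signalling, had a tile 15.8 kb after its start that was 26.4 points higher in stem in the 5 pairs (SD 15.1), with stem minus mature at -17.7 points at week 9. Genes that were not placed may lie nearer to this tile or to those near Jag2, so the tiles are not assigned to Axin2 or Jag2.

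Signalling genes of the Wnt, Notch, Hedgehog and TGF beta pathways had 27 of 42 starts placed and 166 tiles. Against 192 lower and 93 higher among all 30489 tiles near placed starts, 3 of these tiles were lower and 2 higher in stem in all 5 pairs. The lower tiles were at the Wnt ligand gene Wnt6 (22.0 kb after the start, -28.7 points, SD 23.1), the receptor gene Fzd1 (2.7 kb after, -22.6 points, SD 6.07) and the Wnt pathway transcription factor gene Tcf7 (7.6 kb after, -16.0 points, SD 6.62). The higher ones were at the ligand genes Wnt5b (12.9 kb after, 36.3 points, SD 18.2) and Tgfb1 (10.5 kb after, 23.0 points, SD 10.1). A gene that was not placed may lie nearer to such a tile, above all to the one 22.0 kb from Wnt6, so the tiles are not assigned to these genes. Fzd1 had 32.8%, 37.7%, 30.9%, 40.0%, 22.6% and 55.0% in stem libraries, against 56.0%, 39.9%, 63.2%, 55.6%, 44.1% and 75.7% in mature libraries, and so was lower in stem at week 9 as well (-2.19 points). The other 4 tiles were turned round at week 9, with stem minus mature at 9.17 points for Wnt6, 17.6 points for Tcf7, -10.7 points for Wnt5b and -7.79 points for Tgfb1. The alveolar and luminal progenitor list (7 of 22 genes placed, 36 tiles), the Hox clusters (12 of 22, 80 tiles) and the imprinted genes (7 of 19, 25 tiles) had no such tile in either direction. The tile over the start of Igf2r, an imprinted receptor gene, was at 37.6% to 53.3% in stem and 31.1% to 45.4% in mature libraries. Of other cell types a sort could hold, 3 fibroblast, 1 endothelial and 1 adipocyte gene were placed and no immune gene. Their start tiles differed by -1.97 to 0.0383 points in the mean of 5 pairs, and none of their 9, 4 and 3 tiles within 25 kb had one direction in all 5 pairs. Over all tiles the shares were 0.72% lower and 0.259% higher. Lists with so few tiles may hold none at such shares, so the lists without such a tile show nothing about their genes.

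Beyond the lists, several of the 9991 placed genes had 2 tiles of one direction within 25 kb. Among all 30489 tiles near placed starts 192 were lower and 93 higher, and over all tiles the shares were 0.72% and 0.259%. Other placed genes, such as Cracdl, Trak1 and Pik3r2, had 1 lower and 1 higher tile. Hspg2, which encodes perlecan, a proteoglycan of basement membranes, had 2 of 11 tiles lower in stem, at 14.8 and 16.8 kb after the start. At the second of these the levels were 23.0% to 46.3% in stem libraries, with week 9 the highest, against 46.2% to 74.9% in mature libraries, with week 9 the lowest. Itga3 (2 of 6 tiles), Rps6ka1 (2 of 9), Ssh1, a cofilin phosphatase gene (2 of 9), and Sox8, a transcription factor gene (2 of 9), were of the same kind. At Itga3 and Rps6ka1 the tiles include the CpGs of the promoter windows described above, and the 2 tiles of Rps6ka1 are adjacent. In the other direction, Irx3, an Iroquois homeobox gene, had 2 of 7 tiles higher in stem. Its tile 0.9 kb before the start had 26.7%, 21.2%, 30.3%, 53.1%, 28.3% and 29.7% in stem libraries, against 4.68%, 24.1%, 13.9%, 3.54%, 5.17% and 5.5% in mature libraries, again without overlap outside week 9. Cd151, a tetraspanin that binds laminin receptors, had 2 of 13 tiles higher in stem, and Coro2a, an actin-binding coronin gene, 2 of 10. For Ssh1 and Irx3 another placed start was nearer to both tiles, that of Gm52825 and that of Irx3os. These genes were picked for their tiles, and the gene whose start was nearest may be one of those not placed.

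The 20 tiles whose weakest pair was strongest give the upper end of the differences. At the 10 lower ones the smallest of the 5 pair differences was 29.7 to 40.2 points, and at the 10 higher ones 27.8 to 40.6 points, while adjusted p in the quasi-binomial regression with 5 pairs ran from 0.13 to 0.164. The leading lower tile (chr8:13670001-13671000, mm9) lay 7.1 kb after the start of Rasa3, which encodes a GTPase-activating protein for Ras and Rap1. It had 34.0%, 86.9%, 18.3%, 31.4%, 10.7% and 14.1% in stem libraries, against 86.9%, 54.8%, 58.8%, 79.3%, 63.6% and 54.3% in mature libraries. A tile 6.8 kb before Bahcc1, a chromatin reader gene (chr11:120087001-120088000, mm9), had the largest mean difference of the lower tiles, -55.1 points (SD 15.9), and the tile beside it had -52.2 points (SD 23.2). A tile 71.9 kb after the start of Crim1, which encodes a membrane protein that binds BMPs, was the only one of the 10 to be lower in stem at week 9 too.

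Of the higher tiles, the one 3.3 kb after the start of Coro2a (chr4:46611001-46612000, mm9) had 36.9%, 33.2%, 69.9%, 86.4%, 69.8% and 73.1% in stem libraries, against 8.88%, 54.0%, 21.2%, 6.73%, 18.8% and 15.1% in mature libraries, a mean difference of 53.1 points without week 9 (SD 18.6). A tile 18.8 kb after the start of Vegfa, the vascular growth factor gene, had 51.9%, 43.9%, 51.3%, 45.3%, 64.7% and 55.4% in stem libraries, against 20.2%, 57.5%, 14.5%, 8.11%, 34.0% and 10.8% in mature libraries. At week 9 the difference was opposite at 9 of the 10 lower tiles and at 8 of the 10 higher tiles. The exceptions among the higher tiles lay 63.9 kb after the start of Cgnl1, a cell junction gene, and 26.6 kb after that of Ezr, which encodes the membrane linker ezrin.

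**Figure D5:**
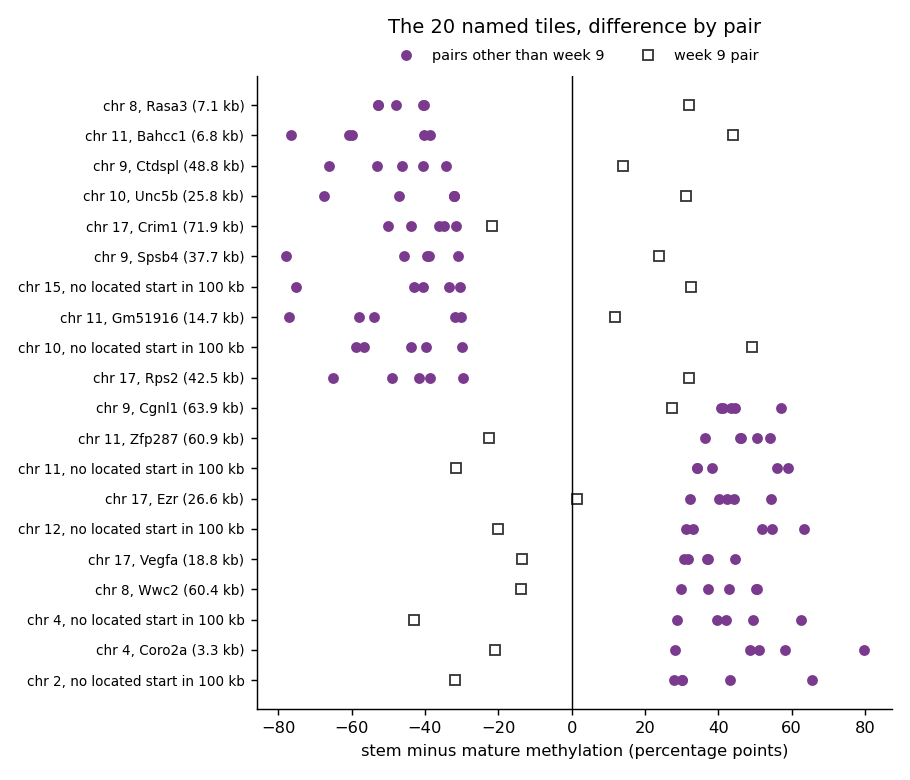
Difference of stem minus mature methylation (percentage points) in each pair at the 20 named tiles, labelled with the chromosome and the nearest placed gene start, with circles for the 5 pairs other than week 9 and open squares for week 9. The circles of the 10 lower tiles all lie at or below -29.7 points and those of the higher tiles at or above 27.8 points, while 17 of the 20 squares lie on the other side of 0.

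Whether the contrast between stem and mature cells differed in pregnancy was tested last. The mean difference was -0.879 points in the 3 pregnant pairs and -0.207 points in the 3 other pairs (exact permutation over 20 splits, p = 0.4), and -0.743 points in the other pairs without week 9 (10 splits, p = 0.8). In the tiles of 20 to 80% it was -3.24 points in pregnant and -0.417 points in other pairs (exact permutation p = 0.4), and -2.28 points in other pairs without week 9 (exact p = 0.7). With 20 or 10 splits these 2-sided permutations cannot give a p below 0.05. They therefore cannot show whether the mean difference changed with pregnancy. The interaction of cell type and pregnancy called 0 tiles (0.0%) in the quasi-binomial regression of 6 pairs, with 6580 (7.54%) at an unadjusted p under 0.05, and 0 (0.0%) without week 9, with 4187 (4.8%). At the 628 lower tiles the stem library of week 3 (55.0%) was above the pregnant and retired stem libraries (31.4% to 38.5%). The retired one (38.5%) lay nearer to the 3 pregnant ones than to week 3. These same libraries chose the tiles, and outside week 9 the mature libraries ran from 58.4% at day 10 to 74.7% at week 3. The week 9 stem library, which took no part in the choice, was at 63.4% and the week 9 mature library at 44.7%. Whether stem levels at these tiles changed with stage was not tested.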

How the data were processed

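DNA of 18 mammary cell samples was cut with MspI, treated with bisulfite and sequenced, per the labels' protocols. For each CpG the authors deposited the methylated reads over all reads, as a text ratio such as methylated/total, on build mm9 per the submitters' processing notes. Some files also hold a score deposited beside it, the methylated share per 1000 (to within 0.5), which was not used further. The aligner, methylation caller and duplicate handling, not given in the sources used here, can shift levels, and reads may be PCR copies of one molecule.

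Reads were summed over CpGs with at least 5 reads in all 12 stem and mature libraries, in tiles of 1000 bp with at least 3 such CpGs. Each tile was fitted by quasi-binomial logistic regression with stage as a block, a dispersion of at least 1 that limma's squeezeVar moderated across tiles, F tests, and p-values adjusted by Benjamini-Hochberg over the 87245 tiles. Calls needed an adjusted p below 0.05 and a 10 point difference. Library means were compared by exact permutation within stages. Pairs come from the stage in the labels, which do not say that the cells of a stage shared animals, and same-stage deviations correlated at -0.43 to 0.28. Any 2 of the 12 libraries differed in read number at 95.6% or more of shared CpGs, so none was deposited more than once.

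No gene annotation of mm9 was used. Of 32851 RefSeq promoters (GRCm38.p6), 7718 were placed where at least 6 listed CpGs all fell on CGs of the sequence and no rival place had more than 50% of the hits, and 99.7% of these shared their displacement with a neighbour. A further 3613 were placed at the sequence's distance from a placed neighbour, where at least 3 CpGs had to match. The 4 printed windows are of this kind.

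Named tiles were the 10 lower and 10 higher in stem with the largest smallest difference over the 5 pairs other than week 9 and at least 20 reads per library. From the gene lists, only genes whose start differed by 10 points or was called, and the defining markers, were to be named. No listed start reached that, and genes named for tiles within 25 kb, and promoter windows, were chosen after their values were seen. The comparison, the setting apart of week 9, the members and the lists were chosen with earlier results of these data known. The regression was tested on simulated reads with the depths of the 12 libraries. They held counting error alone, so that test cannot tell how the fit behaves under the spread between these libraries. Alternatives are given in the closing section. Software was R 4.3.3 (limma 3.58.1) and Python 3.11.15 (matplotlib 3.10.9, pandas 2.3.3, scipy 1.17.1, numpy 2.4.6).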

Additional observations from a re-analysis of the deposited data

Results flagged for a closer look

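Of 69 sets of 6 values examined (mean levels, their pair differences, the 20 named tiles and the promoter windows of protein-coding genes), 5 held 1 library far from the other 5. Chance flags about 1 in 20 sets that were not chosen by their values, a rate that does not hold for tiles that were chosen because the other 5 pairs had one direction. On the X chromosome the week 3 mature library had a mean level of 77.3%, against 76.2% to 76.5% in the other mature libraries.

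In the remaining 4 the library apart was from week 9. In the tile near Rasa3 on chromosome 8 the week 9 stem library had 86.9%, against 10.7% to 34.0% in the other stem libraries. In the tile on chromosome 10 with no placed start within 100 kb, the week 9 mature library had 22.6%, against 65.1% to 86.5% in the other mature libraries. In the tile near Coro2a on chromosome 4 the week 9 mature library had 54.0%, against 6.73% to 21.2% in the others. In the tile on chromosome 2 with no placed start within 100 kb, the week 9 mature library had 46.0%, against 3.12% to 15.7% in the others. The week 9 libraries took no part in picking these tiles, but picking tiles on which the other 5 pairs agree makes a week 9 library more likely to stand apart.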

How the results depend on the processing

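With 6 pairs the regression called 0 tiles under every alternative run: 10 reads per CpG, tiles of 500 bp, 20 points, limma, no replicate block, all cell types in the fit, no CpGs above the 99th percentile of coverage, no X, Y and M, only tiles of 20 to 80%, and each stage left out (0 to 0). With 5 pairs the count stayed at 0 except without the replicate block (27, smallest adjusted p 0.0259), with all cell types in the fit (227) and in tiles of 20 to 80% only (1378), and it was 0 with each further stage left out (0 to 0) and after thinning to equal reads. The cause of these higher counts was not tested, though the last tests 20518 tiles in place of 87245.

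The mean difference of 6 pairs ran from -0.35 points without day 19 to -0.825 points without week 9, and that of 5 pairs from -0.654 points without day 19 to -1.01 points without day 10. Pooling reads gave -0.324 points for 6 pairs (exact permutation p = 0.7812) and -1.15 points for 5 (exact permutation p = 0.3125). Stem libraries were then lower in 4 pairs in either case, and at day 10 the pooled level was 1.69 points higher in stem.

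Tiles with one direction in the 5 pairs fell to 126 lower and 46 higher at 20 points, and to 383 lower and 131 higher at 10 reads per CpG, where 55325 tiles remained. With another pair set apart in place of week 9 they were 28 (day 16 apart) to 50 lower (day 10 apart), and 33 (day 16 apart) to 63 higher (day 19 apart). All 476 alternative values of 68 single tiles, with a stage left out or the mean of CpGs taken, kept their direction. These tiles were chosen for the same direction in all 5 pairs other than week 9. Leaving a stage out of their mean difference could therefore hardly turn that direction round, so these values do not test it. Taking the mean of CpGs, from the same libraries, moved a tile by at most 5.6 points.

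Depth limits the day 16 and retired pairs most, and a window such as Pafah2 rests on as few as 18 reads in a library. Levels cover only CpGs near MspI sites, and a bulk library cannot separate a change in cells from a change in the mix of cells.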
